A study of Mus musculus with 3 samples.

Results

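The 10 genes described here, *Scx*, *Mkx*, *Tnmd*, *Chodl*, *Angptl7*, *Ptx4*, *Egfl6*, *Cilp*, *Cilp2*, and *Abi3bp*, are known from tendon and ligament. They were chosen with earlier results of these data known, so what follows describes the set and does not test it. They were named by symbol, and each matched 1 of the 32285 genes in the deposited tables. Their UMIs (unique molecular identifiers, which count captured RNA molecules) were read in 3 single-cell libraries. Each library came from the callus of fractured mouse femurs, collected on day 7, 10, or 14 of healing. The mice were C57BL/6 and received no treatment, the muscle had been taken off the femur, and live cells negative for CD45, CD31, and TER119 were sorted. The age of the mice and how many went into a library were not given in the sources used here. With 1 library per day there were no replicates, so no difference below has a replicate check, and every interval is a 95% interval of counting error only.

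Tendons and ligaments are built by fibroblasts that lay down parallel type I collagen together with small leucine-rich proteoglycans, thrombospondins, and other linker proteins. *Scx* and *Mkx* encode transcription factors of this lineage, and *Tnmd* encodes tenomodulin, a membrane glycoprotein of maturing tendon cells. The close relative of *Tnmd* is *Cnmd*, chondromodulin, which belongs to avascular cartilage. The periosteum and the ends of tendons and ligaments meet at bone, and a healing callus holds fibroblastic, cartilage, bone, and contractile cells side by side.

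Within the study's limits (500 to 5000 genes, at most 10% mitochondrial and 5% hemoglobin UMIs) there were 7017, 6593, and 9853 cells at day 7, day 10, and day 14. Cells without a UMI of *Ptprc*, which encodes CD45, numbered 447, 6587, and 9680, with medians of 6763, 17372, and 15838 UMIs. The day 7 library went against its sort label, since 93.6% of its cells carried *Ptprc*, and even its *Ptprc*-negative cells held 22937 CPM (UMIs per 1000000 of the cells' summed UMIs) of 6 summed neutrophil markers, against 28.7 CPM at day 10 and 389 CPM at day 14. Pairs of libraries shared 29 to 42 cell barcodes. All values below are from *Ptprc*-negative cells unless stated.

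A cell was called high for *Aspn*, *Acta2*, *Cnmd*, *Ifitm5*, or *Rgs5* when that gene reached 1000 CPM and 3 UMIs in it. *Aspn* (asporin) marks the fibroblastic periosteal cells of the callus, *Acta2* (smooth muscle actin) contractile cells, *Cnmd* chondrocytes, *Ifitm5* osteoblasts, and *Rgs5* pericytes. *Aspn*-high cells numbered 25, 2160, and 4164 at day 7, day 10, and day 14. *Acta2*-high cells numbered 12, 618, and 768, *Cnmd*-high cells 64, 3204, and 2189, *Ifitm5*-high cells 1, 78, and 271, and *Rgs5*-high cells 0, 76, and 214. Groups under 20 cells were given no level. The groups are ranges rather than types: 715 cells at day 10 and 815 at day 14 had 500 to 1000 CPM of *Aspn*, just below the limit. A cell could also be high for several of these genes, as 1031 cells at day 10 and 1104 at day 14 were.

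The genes lie apart in the genome (GRCm38, GENCODE M21). *Scx* is at chr15:76457452-76459458, *Tnmd* at chrX:133850980-133865577, *Chodl* at chr16:78930948-78951733, *Angptl7* at chr4:148495183-148500460, *Ptx4* at chr17:25120760-25125292, *Egfl6* at chrX:166523007-166585720, *Cilp* at chr9:65265180-65280605, *Cilp2* at chr8:69880369-69887687, and *Abi3bp* at chr16:56477878-56690135. *Scx* overlaps *Bop1* and *Angptl7* overlaps *Mtor*, in both cases on the opposite strand. *Mkx*, whose position is not printed here, overlaps AC148004.2 on the same strand. *Bop1* was 0.81 (log2) higher in *Scx*-positive than in other cells at day 10 and 0.76 higher at day 14.

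Promoter sequence from RefSeq (GRCm38.p6) was matched for 6 of the 10 genes, *Tnmd*, *Chodl*, *Angptl7*, *Egfl6*, *Cilp*, and *Cilp2*. Scleraxis, the product of *Scx*, is a basic helix-loop-helix factor, a family that binds E-boxes, CANNTG. This 6-base motif reads the same on both strands in its fixed letters, and it was searched in the 250 bases before each start site. *Chodl*, *Angptl7*, and *Egfl6* are shown as rare genes of the set, and *Tnmd* because it is the tendon marker of the set. Bases run 5' to 3' on the gene's strand, and capitals mark CANNTG.
*Chodl* (chr16:78930698-78930947, plus strand): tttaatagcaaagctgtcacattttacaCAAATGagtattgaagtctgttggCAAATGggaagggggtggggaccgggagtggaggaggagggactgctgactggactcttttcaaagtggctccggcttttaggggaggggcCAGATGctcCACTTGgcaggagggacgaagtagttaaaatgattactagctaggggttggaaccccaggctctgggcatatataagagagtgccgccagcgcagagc
*Angptl7* (chr4:148500463-148500712, minus strand): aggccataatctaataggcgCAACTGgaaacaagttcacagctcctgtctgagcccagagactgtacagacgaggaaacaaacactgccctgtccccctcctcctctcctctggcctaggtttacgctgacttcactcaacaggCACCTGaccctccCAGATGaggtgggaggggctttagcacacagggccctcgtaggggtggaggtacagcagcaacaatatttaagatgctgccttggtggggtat
*Egfl6* (chrX:166585717-166585966, minus strand): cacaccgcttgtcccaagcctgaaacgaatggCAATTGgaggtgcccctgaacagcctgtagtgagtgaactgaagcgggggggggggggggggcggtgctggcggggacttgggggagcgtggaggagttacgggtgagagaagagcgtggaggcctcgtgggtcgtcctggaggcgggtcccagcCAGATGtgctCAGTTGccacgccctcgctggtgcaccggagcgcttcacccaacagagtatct
*Tnmd* (chrX:133850758-133851007, plus strand): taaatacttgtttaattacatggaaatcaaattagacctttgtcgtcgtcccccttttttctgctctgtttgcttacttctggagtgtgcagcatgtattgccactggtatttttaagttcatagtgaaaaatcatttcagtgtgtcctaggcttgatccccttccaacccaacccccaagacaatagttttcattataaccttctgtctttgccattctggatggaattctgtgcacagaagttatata

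*Chodl* held 4 such motifs, *Angptl7* 3, *Egfl6* 3, *Cilp* 3, *Cilp2* 1, and *Tnmd* 0, while 66.2% of 32851 RefSeq promoters of this length held at least 1, with a median of 1. The form CATCTG, or CAGATG on the other strand, occurred in *Chodl* at -107, in *Angptl7* at -93, and in *Egfl6* at -63, counted in bases from the start site, and in 14.4% of all promoters. *Cnmd*, which is outside the set, also held this form, at -75. A match describes letters in this window only.

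Most of the set was concentrated in *Aspn*-high cells. Against the other cells of the same library, 8 of the 10 genes were at least 2-fold higher in *Aspn*-high cells at day 10, where 9.82% of the 13772 genes tested were, and 9 of 10 at day 14, where 10.6% of 14411 were. None was at least 2-fold lower, although 6.04% and 7.79% of all genes were. The median log2 ratio of the 10 was 2.52 at day 10 and 3.65 at day 14, beside 0.21 and 0.20 over all genes tested. A gene was tested when it had 50 UMIs over both arms. The exceptions were *Mkx* at both days and *Ptx4* at day 10. Some genes reached 50 UMIs only through the *Aspn*-high arm, so their calls are no independent support. At day 14 that arm held 84 of the 86 *Chodl* UMIs and 82 of the 93 *Ptx4* UMIs. It also held 217 of the 227 *Egfl6* UMIs and 284 of the 311 *Angptl7* UMIs. At day 10 it held 412 of the 451 *Egfl6* UMIs. At day 7 only 6 of the 10 could be tested, and all 6 were higher, where 8.12% of 8274 genes were higher and 14.4% lower. Of these, *Angptl7* (96 of 102 UMIs in *Aspn*-high cells) and *Cilp2* (66 of 95) reached 50 UMIs only through that arm. For each gene those UMIs came from 3 cells.

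**Figure D1:**
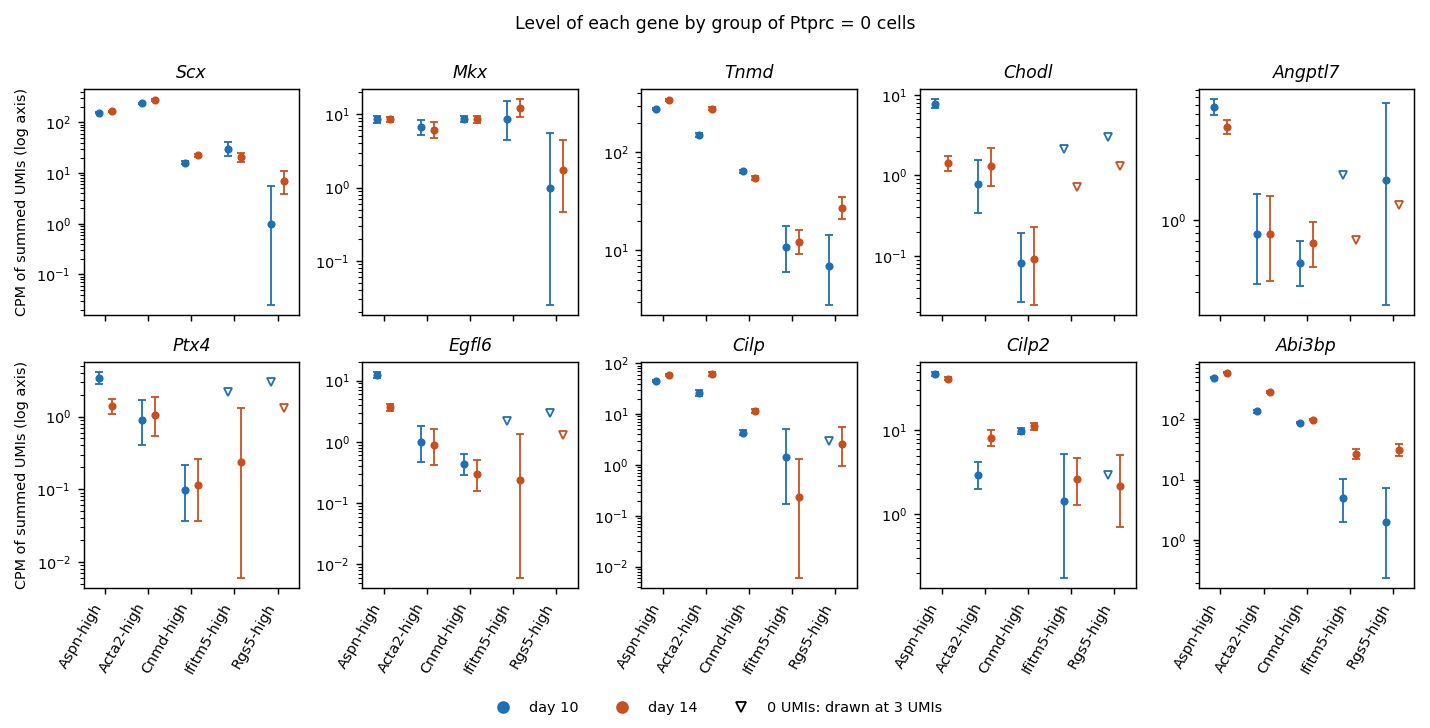
Level of each of the 10 genes (CPM of summed UMIs, log axis) in cells high for *Aspn*, *Acta2*, *Cnmd*, *Ifitm5*, or *Rgs5* at day 10 (blue) and day 14 (orange). Points are 1 library each, bars are exact Poisson 95% intervals, and open triangles mark groups with 0 UMIs, drawn at the level of 3 UMIs. Most genes peak in *Aspn*-high cells, *Scx* peaks in *Acta2*-high cells (236 and 274 CPM), and *Mkx* stays between 6.15 and 12.1 CPM over the first 4 groups.

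The transcription factors of the set differed from each other. *Scx*, the early factor of tendon and ligament progenitors, had 99.2 CPM (71.8 to 134) in the 25 *Aspn*-high cells of day 7, 154 CPM (150 to 159) at day 10, and 167 CPM (163 to 170) at day 14. The other cells had 24.4, 21.3, and 19.1 CPM. *Aspn*-high cells were thus the higher arm at every day, with log2 ratios of 2.03, 2.86, and 3.13. *Acta2*-high cells held still more *Scx*, 236 CPM (226 to 245) at day 10 and 274 CPM (264 to 284) at day 14, with intervals clear of those of *Aspn*-high cells. *Cnmd*-high cells had 15.9 and 22.2 CPM, *Ifitm5*-high cells 30.2 and 20.4 CPM, and *Rgs5*-high cells 0.992 and 6.90 CPM.

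*Mkx*, the homeobox factor Mohawk of collagen production in tendon, showed no such concentration. Its level in *Aspn*-high cells was 13.8 CPM at day 7, from 6 UMIs, then 8.52 and 8.49 CPM, and the other cells had 8.12, 10.5, and 8.96 CPM. The log2 ratio was 0.77 (-0.77 to 2.03), -0.30 (-0.50 to -0.10), and -0.08 (-0.24 to 0.08). *Cnmd*-high cells had 8.57 and 8.47 CPM of *Mkx* at day 10 and day 14, and *Ifitm5*-high cells had 8.63 (4.46 to 15.1) and 12.1 (9.01 to 15.9) CPM, the highest of the 5 groups but with intervals that overlapped the next. *Acta2*-high cells had 6.62 (5.13 to 8.401) and 6.15 (4.79 to 7.77) CPM, log2 ratios of -0.63 and -0.55 to the other cells, and *Rgs5*-high cells had 0.992 and 1.73 CPM from 1 and 4 UMIs. Cells high for none of the 5 genes had 14.4 (12.9 to 16.0) CPM at day 10 and 9.16 at day 14. No cell held more than 6 UMIs of *Mkx* at any day.

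*Tnmd*, the membrane marker of maturing tendon cells, had 522 CPM (456 to 594) in *Aspn*-high cells at day 7, 276 CPM (271 to 282) at day 10, and 342 CPM (338 to 347) at day 14. The other cells had 19.2, 42.2, and 22.7 CPM. *Acta2*-high cells came next, with 151 and 277 CPM at day 10 and day 14, then *Cnmd*-high cells with 64.3 and 55.0 CPM. At day 10 *Tnmd* UMIs were found in 40.0% of *Aspn*-high and 29.0% of *Cnmd*-high cells as sequenced. With every cell thinned to 5000 UMIs these shares were 31.1% (29.1 to 33.1) and 16.2% (14.9 to 17.5). Thinning left out 214, 336, and 837 shallower cells at day 7, day 10, and day 14.

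Of the matrix genes, *Abi3bp*, which encodes an extracellular matrix binding protein, had 801, 475, and 577 CPM in *Aspn*-high cells at day 7, day 10, and day 14, against 23.2, 38.7, and 42.9 CPM in the others. In thinned cells 53.9% (51.8 to 56.1) of *Aspn*-high cells had *Abi3bp* at day 10 and 65.8% (64.3 to 67.3) at day 14, while *Cnmd*-high cells had it in 22.9% and 25.4%. Of the *Cnmd*-high cells, 538 of 3204 at day 10 and 383 of 2189 at day 14 were also *Aspn*-high. Cells high for *Aspn* and *Cnmd* alone had 378 and 366 CPM of *Abi3bp*, and cells high for *Cnmd* only had 38.3 and 50.8 CPM. *Cilp*, a secreted matrix protein named for the cartilage intermediate layer and also known from tendon and ligament, had 226, 44.9, and 58.4 CPM in *Aspn*-high cells and 11.5, 7.58, and 14.5 CPM in the others. Its close relative *Cilp2* had 152, 46.8, and 41.2 CPM in *Aspn*-high cells and 6.54, 8.46, and 8.80 CPM in the others. The relatives parted in *Acta2*-high cells: *Cilp* reached 25.9 and 61.4 CPM there at day 10 and day 14, the latter overlapping the 58.4 CPM of *Aspn*-high cells, whereas *Cilp2* stood at 2.96 and 8.17 CPM, below the 9.94 and 11.2 CPM of *Cnmd*-high cells.

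*Chodl* (a C-type lectin membrane protein), *Ptx4* (a pentraxin), *Angptl7* (a secreted angiopoietin-like protein), and *Egfl6* (a secreted protein with EGF repeats) were rare. In the order of the days, *Chodl* UMIs were found in 4, 70, and 24 cells and *Ptx4* UMIs in 4, 81, and 64. *Angptl7* was found in 6, 92, and 84 cells and *Egfl6* in 6, 141, and 114. A few cells held much of each gene. The 10 richest cells had 48.1% of all 462 *Chodl* UMIs at day 10 and 79.1% of all 86 at day 14, whereas the 10 richest cells for *Scx* held 4.61% and 2.97% of its UMIs. For *Angptl7* the 10 richest cells held 55.0% and 54.0%.

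In *Aspn*-high cells *Chodl* stood at 83.1 CPM at day 7 (36 UMIs in 3 cells), 7.80 CPM at day 10 (260 UMIs in 45 cells), and 1.42 CPM at day 14 (84 UMIs in 23 cells). *Ptx4* stood at 32.3, 3.36, and 1.38 CPM, *Angptl7* at 222, 6.72, and 4.79 CPM, and *Egfl6* at 11.5, 12.4, and 3.66 CPM. All 4 were lower at day 14 than at day 10, *Angptl7* by less than 2-fold. In *Cnmd*-high cells none of the 4 exceeded 0.677 CPM at day 10 or day 14, and in *Ifitm5*-high and *Rgs5*-high cells each had 0 to 2 UMIs.

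At day 10 cells high for none of the 5 genes, which were 22.9% of the cells, held 200 of the 462 *Chodl* UMIs (43.3%) and 137 of the 254 *Ptx4* UMIs (53.9%). They held 30.6% of the *Angptl7* UMIs and 5.54% of the *Egfl6* UMIs, so the rare genes differed in this. Those 23 *Chodl*-positive cells had a median of 446 CPM of *Aspn*, and 10 of them had 500 to 1000 CPM, near the limit. The 45 *Chodl*-positive cells inside the *Aspn*-high group had a median of 3838 CPM. At day 14 cells high for none held 0 *Chodl* UMIs and 7 of the 93 *Ptx4* UMIs, and *Aspn*-high cells held 97.7% of the *Chodl* UMIs.

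Outside the *Aspn*-high cells the pattern varied by group. In *Cnmd*-high cells 0 of the 10 genes were at least 2-fold higher and 9 were at least 2-fold lower at both day 10 and day 14, where 14.6% and 15.3% of all genes tested were lower and 3.94% and 2.99% higher. *Mkx* was the exception at both days. In *Ifitm5*-high cells 9 of 10 were lower at each day, beside 27% and 25.3% of all genes, and none was higher, beside 5.89% and 4.45%. In *Rgs5*-high cells 9 of 10 were lower at day 10 and all 10 at day 14, beside 20.8% and 16.9% of all genes, and none was higher, beside 15.5% and 13.9%. These last groups were small, and genes with 0 UMIs entered the counts. With such genes set to 3 UMIs, 5 and 8 members remained at least 2-fold lower in *Ifitm5*-high cells and 6 and 6 in *Rgs5*-high cells. In all these ratios the other cells held most *Aspn*-high cells, so a lower call does not by itself set these groups below the remaining cells. Against cells high for none, *Cnmd*-high cells had more *Tnmd* (64.3 against 54.2 CPM at day 10, 55.0 against 17.2 at day 14). *Abi3bp* was also higher in them (86.5 against 44.0 and 97.5 against 40.2 CPM). At day 10 the other members had less in *Cnmd*-high cells, and at day 14 only *Mkx*, *Ptx4*, and *Cilp* did.

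*Acta2*-high cells gave a mixed picture that differed with *Aspn*. At day 10 only *Scx* was at least 2-fold higher there, beside 10.3% of all genes, while *Chodl*, *Angptl7*, *Ptx4*, *Egfl6*, and *Cilp2* were at least 2-fold lower, beside 10.6%. At day 14 *Scx*, *Tnmd*, *Chodl*, and *Cilp* were higher, beside 7.5% of all genes, and *Angptl7* and *Cilp2* were lower, beside 9.31%. The value of *Chodl* at day 14 rested on 15 UMIs in 4 *Acta2*-high cells. Most *Acta2*-high cells were also *Aspn*-high, 452 of 618 at day 10 and 592 of 768 at day 14. When each cell was assigned by its full set of high genes, *Scx* had 306 CPM (293 to 318) in the 427 cells high for *Aspn* and *Acta2* alone at day 10 and 340 CPM (328 to 353) in the 544 such cells at day 14. Cells high for *Aspn* only had 151 and 150 CPM of *Scx*, and cells high for *Acta2* only had 66.4 and 111 CPM.

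*Tnmd* was low where *Acta2* alone was high in the same split. Cells high for *Acta2* only had 15.7 and 26.5 CPM of *Tnmd* at day 10 and day 14, from 29 and 34 UMIs, against 202 and 357 CPM in cells high for *Aspn* and *Acta2* and 345 and 370 CPM in cells high for *Aspn* only. Cells high for *Aspn* and *Cnmd* had 219 and 184 CPM of *Tnmd*, and cells high for *Cnmd* only 38.9 and 31.5 CPM. *Cilp2* was a clear contrast, with 76.8 and 50.6 CPM in cells high for *Aspn* only but 3.92 and 9.93 CPM in cells high for *Aspn* and *Acta2*. *Abi3bp* had 666 CPM in cells high for *Aspn* only at both days, and 178 and 349 CPM in those high for *Aspn* and *Acta2*. *Egfl6* had 23.1 and 4.66 CPM against 1.35 and 1.15 CPM. Restricted to cells high for exactly 1 of the 5 genes, no member was 2-fold higher in *Acta2*-high cells at day 10 and 2 were at day 14, and the log2 ratios of *Tnmd* in them became -2.85 and -2.48.

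**Figure D2:**
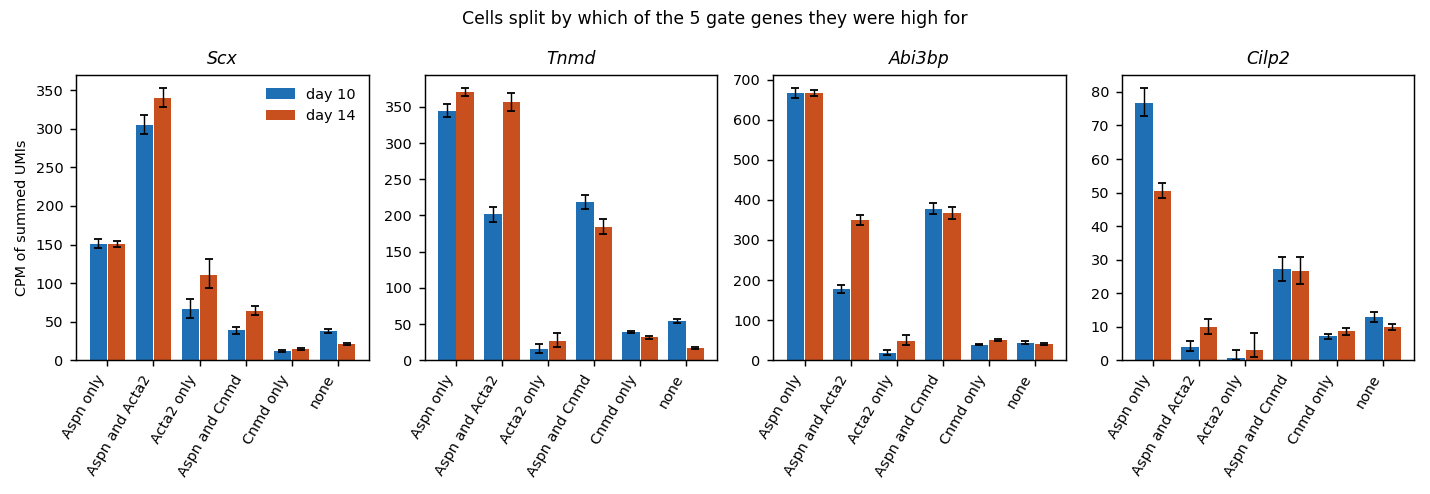
Levels of *Scx*, *Tnmd*, *Abi3bp*, and *Cilp2* (CPM of summed UMIs, linear axis from 0) in cells split by the exact set of genes they were high for, at day 10 (blue) and day 14 (orange). Bars are 1 library each with exact Poisson 95% intervals. *Scx* is highest where *Aspn* and *Acta2* are both high (306 and 340 CPM), while *Abi3bp* and *Cilp2* are highest where *Aspn* alone is high.

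Between day 10 and day 14 the common genes of the set held their level in *Aspn*-high cells and the rare ones were lower. *Chodl*, *Egfl6*, and *Ptx4* were at least 2-fold lower at day 14, by a log2 difference of -2.46 (-2.83 to -2.10), -1.76 (-2.001 to -1.516), and -1.28 (-1.71 to -0.86), where 1.97% of the 13482 genes tested were. None of the 10 was 2-fold higher, where 1.66% were. The others stayed within 2-fold, from -0.49 for *Angptl7* to 0.38 for *Cilp*. With the 10 richest cells of each library left out, the same count of 3 was obtained and *Chodl* stood at -3.79. Neutrophil markers summed to 3.42 CPM in *Aspn*-high cells at day 10 and 219 CPM at day 14, with all 6 of the list detected at both days. Their part in these differences was not tested, and day cannot be told apart from library.

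In *Acta2*-high cells the matrix genes were higher at day 14. *Cilp2*, *Cilp*, and *Abi3bp* were at least 2-fold higher at day 14, by 1.46 (0.86 to 2.11), 1.25 (1.04 to 1.46), and 1.03 (0.94 to 1.12) on the log2 scale, where 1.32% of 11130 genes were. In *Aspn*-high cells the same differences were -0.18, 0.38, and 0.28. In *Acta2*-high cells none of the 6 members tested was lower, where 0.952% were. *Tnmd* was 0.88 higher and *Scx* 0.22 higher, both under 2-fold. Of the *Acta2*-high cells, 452 of 618 were also *Aspn*-high at day 10 and 592 of 768 at day 14. Between these days *Cilp* went from 34.6 to 76.8 CPM in cells high for *Aspn* and *Acta2* alone. *Abi3bp* went from 178 to 349 CPM in them and *Cilp2* from 3.92 to 9.93 CPM. In cells high for *Acta2* only, *Abi3bp* went from 18.4 to 48.4 CPM. *Cilp* went from 1.62 to 23.4 CPM there, on 3 and 30 UMIs, and *Cilp2* rested on 1 and 4 UMIs. The part of the overlap with *Aspn*-high cells in these differences was not tested.

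Day 7 rests on few cells. Its 25 *Aspn*-high cells had higher levels of 8 of the 10 genes than those of day 10, and *Chodl*, *Angptl7*, *Ptx4*, *Cilp*, and *Cilp2* were at least 2-fold lower at day 10, where 9.86% of 11940 genes were lower. None of the 10 was 2-fold higher at day 10, where 12.4% of genes were. The UMIs of day 7 came from very few cells: 1 cell held 62 of the 102 *Angptl7* UMIs, 1 held 185 of the 450 *Abi3bp* UMIs, and 1 held 106 of the 311 *Tnmd* UMIs. Without the 10 richest cells for each gene, only 2 of the 10 genes, *Scx* and *Abi3bp*, still had 50 UMIs and could be tested, in place of 6, and 1 of them was at least 2-fold higher in *Aspn*-high cells of day 7. Neutrophil markers summed to 2033 CPM in those 25 cells.

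**Figure D3:**
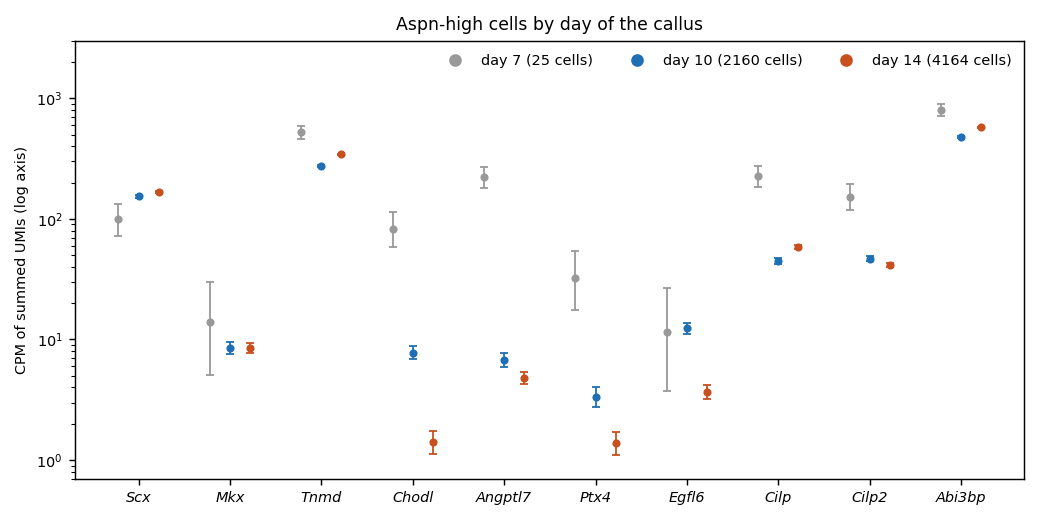
Level of each gene in *Aspn*-high cells (CPM of summed UMIs, log axis) at day 7 (grey, 25 cells), day 10 (blue, 2160 cells), and day 14 (orange, 4164 cells), with exact Poisson 95% intervals and 1 library per day. *Chodl*, *Ptx4*, and *Egfl6* sit lower at day 14 than at day 10, the common genes stay close, and the grey points rest on a few cells.

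The genes of the set were found together in single cells more often than their separate frequencies would give. Since the set was chosen with earlier results of these data known, this is a description and no independent test. In thinned cells, 32 of the 40 pairs with at least 10 observed or expected cells were co-detected at 2 times the expected number or more at day 10, and 22 of 36 at day 14, out of 45 pairs in all. Of the pairs of a member with a gene outside the set that reached the same number of cells, 4.18% passed at day 10 and 1.64% at day 14, with no matching of those genes to the members in frequency. The median ratio over the 45 pairs was 3.59 and 2.94. Since most of the genes favor *Aspn*-high cells, the expectation was also taken within those cells alone. There 20 of 39 pairs passed at day 10 and 12 of 36 at day 14, beside 1.84% and 0.683% of the pairs with a gene outside the set. In each of these counts, a pair expected in far fewer than 10 cells was counted only if observed in at least 10. That alone put it past 2 times the expected number, so such pairs could only pass, and the counts are raised by it.

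The ratio cannot exceed the number of cells divided by the cells with the commoner gene, so rare pairs can reach higher values than common ones, and the ratios of different pairs are not ranked here. *Chodl* and *Ptx4* were found in the same cell 25 times at day 10, where 0.34 cells were expected, a ratio of 73.0 where 123 was the most possible, and within *Aspn*-high cells 12 times against 0.38. Those 25 were 59.5% of the *Chodl*-positive cells. At day 14 they met in 9 cells. *Angptl7* and *Egfl6* met in 18 cells at day 10 and 10 at day 14, with ratios of 23.8 and 32.6. *Egfl6* and *Cilp2* met in 61 and 20 cells, with ratios of 10.5 and 4.76. *Chodl* and *Cilp* met in 33 and 16 cells, with ratios of 15.7 and 11.3. *Chodl* and *Angptl7* met in 6 cells at day 10 and 9 at day 14, too few to count.

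*Scx* is common, and its ratios in *Aspn*-high cells could reach at most 2.75 at day 10 and 2.56 at day 14, or 1.85 and 1.52 with *Abi3bp*. The observed over the expected number of those cells shared with *Tnmd* was 1.15 at day 10 and 1.16 at day 14, with *Abi3bp* 0.98 and 1.04, and with *Cilp2* 1.16 and 1.04. Its highest ratio there was with *Ptx4* at day 10, 1.95 from 22 cells. *Mkx* was close to expectation with *Abi3bp* (1.20 and 1.09 in *Aspn*-high cells) but met *Chodl* in 11 *Aspn*-high cells at day 10 where 1.15 were expected, a ratio of 9.55. For *Tnmd* and *Cilp2* the ratio in *Aspn*-high cells was 2.11 and 1.99.

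**Figure D4:**
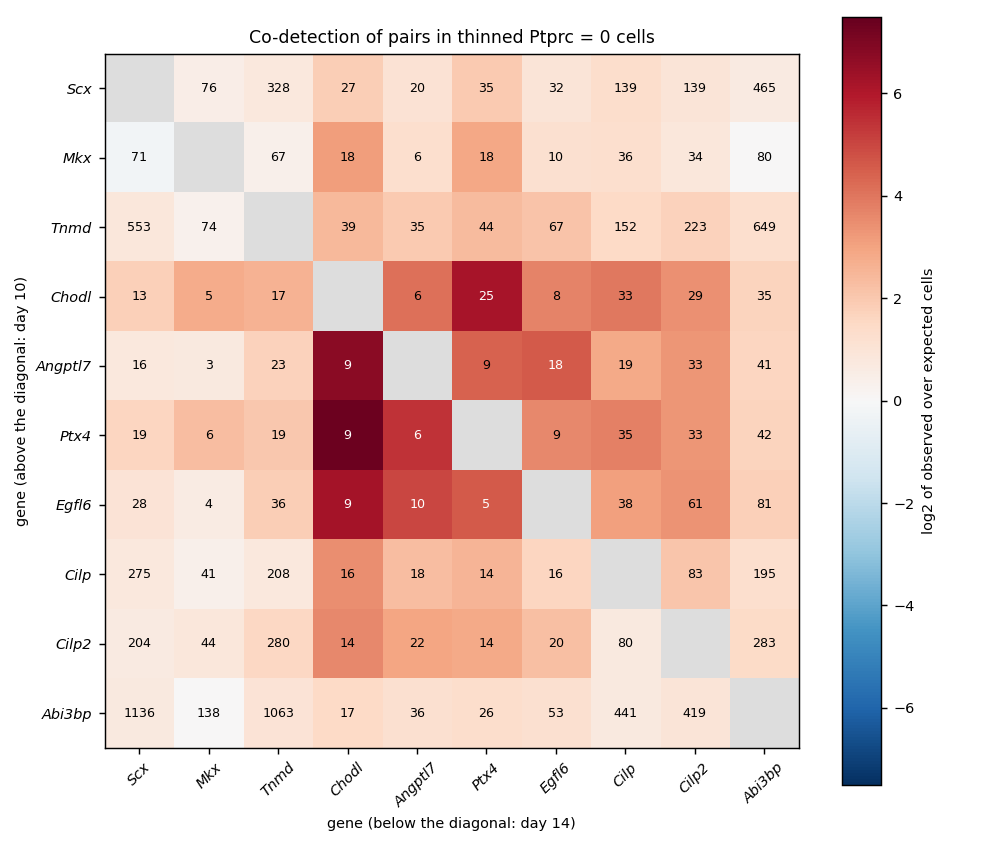
Co-detection of the 45 gene pairs in cells thinned to 5000 UMIs, day 10 above the diagonal and day 14 below it. Color gives the log2 of observed over expected cells and each number the observed cells, and low numbers carry wide counting error. Strong colors occur among *Chodl*, *Ptx4*, *Angptl7*, and *Egfl6*, rare genes whose ratios can reach higher values than those of common genes. *Chodl* and *Ptx4* met in 25 cells at day 10 and 9 at day 14. The *Scx* row and column, where a ratio can reach at most 5.58, are paler.

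Counted per cell, at least 3 of the 10 genes were found in 5 of the 233 thinned cells of day 7 (2.15%, 0.70 to 4.94). Day 10 had 484 such cells of 6251 (7.74%, 7.09 to 8.43), and day 14 had 936 of 8843 (10.6%, 9.95 to 11.2). Among *Aspn*-high cells the shares were 19.4% (17.8 to 21.2) at day 10 and 22.4% (21.1 to 23.8) at day 14. *Acta2*-high cells had 8.18% and 16.2%, and *Cnmd*-high cells 3.56% and 3.90%. Cells with many of the genes ran the other way in time. At least 5 genes were found in 107 cells at day 10 (1.71%) and 56 at day 14 (0.63%), and at least 7 in 34 and 15 cells. Of the 107 cells at day 10, 83 were *Aspn*-high and 23 were high for none of the 5 genes, while at day 14 the *Aspn*-high cells held 55 of the 56 and cells high for none 0 of 2803, which allows a share of up to 0.107% (3 cells of the total).

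**Figure D5:**
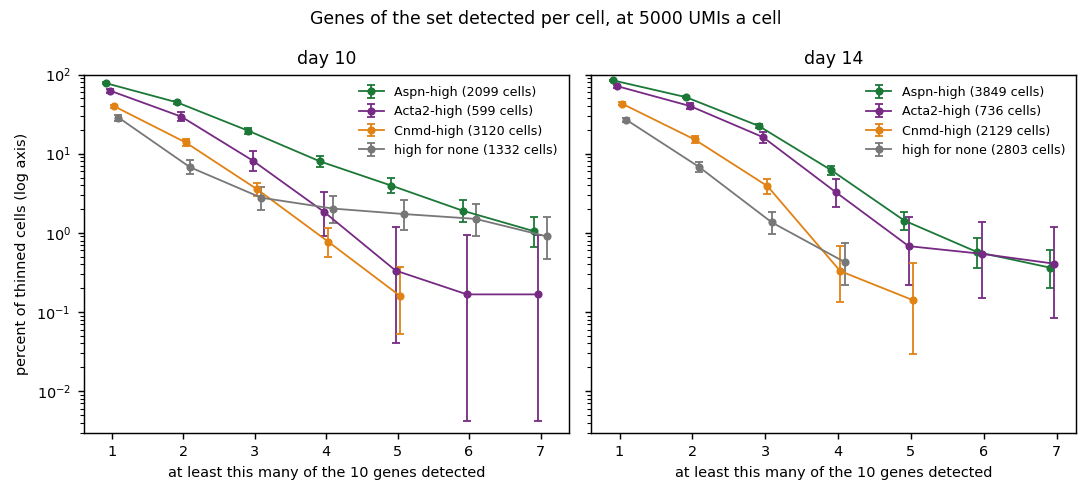
Percent of cells with at least the given number of the 10 genes (log axis), at 5000 UMIs per cell, at day 10 and day 14, with exact Clopper-Pearson 95% intervals and points left out where no cell qualified. *Aspn*-high cells (green) lie highest for 1 to 5 genes at both days, and the grey line of cells high for none reaches 7 genes at day 10 but stops at 4 at day 14.

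Further genes were read in the cells that held *Chodl* at day 10. The 42 *Chodl*-positive thinned cells held 838 CPM of *Scx* against 57.4 in other cells, 91.6 against 9.52 CPM of *Mkx*, 378 against 0.58 CPM of *Ptx4*, and a log2 ratio of 6.39 for *Cilp*. *Thbs4*, a thrombospondin of tendon matrix, was 6.32 higher on the log2 scale, and *Kera*, the proteoglycan keratocan, 5.95 higher. *Cnmd* was -6.16 and *Col2a1*, the main cartilage collagen, -5.20 on the same scale, *Comp* (cartilage oligomeric matrix protein, which is also found in tendon) -2.23, and *Ibsp*, a bone sialoprotein, -3.75. These cells had a median of 8838 UMIs, against 17823 in the others.

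The 91 *Egfl6*-positive cells of day 10 were less extreme, with log2 ratios of 4.12 for *Thbs4*, 5.34 for *Cilp2*, 4.01 for *Abi3bp*, -2.23 for *Cnmd*, and -2.68 for *Col2a1*. The 63 of day 14 had 3.14, 3.67, 2.79, -1.35, and -2.11. *Scx* was 1.35 and 1.63 higher in them, a smaller ratio than in *Chodl*-positive cells.

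For each member with at least 50 positive cells at both days, the 5 genes with the largest log2 ratio in positive cells were taken. They were ranked on the smaller of the ratios of day 10 and day 14. Only genes with at least 20 CPM in the positive cells of both days were ranked, other members included, which left 4947 to 5229 genes. For *Scx* they were *Actg2* (2.23 and 2.29), *Tagln* (2.26 and 2.09), *Lrrc15*, *Thbs4*, and *Tnmd*, of which *Actg2* and *Tagln* belong to the contractile apparatus. For *Tnmd* they were *Mfap4* (3.26 and 3.05), a microfibril protein, *Thbs4* (3.998 and 2.87), *Cilp2*, *Ccn3*, and *Angptl1*. For *Abi3bp* they were *Ccn3*, *Igf1* (3.43 and 3.30), *Mfap4*, *Angptl1*, and *Tnmd*. For *Cilp* they included *Thbs4* (4.21 and 2.63), *Prg4* (3.04 and 2.15), which encodes lubricin, *Gas2*, and *Barx2*. For *Cilp2* they were *Gpha2*, *Mfap4*, *Ccn3*, *Wfdc1*, and *Tnmd*. *Egfl6* had *Angptl7* (6.05 and 5.94), *Crabp1* (5.80 and 5.63), *Prss12*, *Chodl*, and *Pthlh*. *Mkx* had weaker partners, *Cilp2* (1.56 and 0.97), *Thbs4* (2.13 and 0.82), *Tnmd*, *Ptprz1*, and *Chst1*. *Chodl*, *Ptx4*, and *Angptl7* had too few positive cells on 1 of the days or both.

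Other genes of the tendon program followed the set only in part. Of 17 further regulators, 6 of the 14 tested were at least 2-fold higher in *Aspn*-high cells at day 10 and 1 was lower, and at day 14 5 of 14 were higher and 2 lower. The median log2 ratio was 0.71 and 0.87. Over all genes tested, 9.82% were higher and 6.04% lower in *Aspn*-high cells at day 10, and 10.6% and 7.79% at day 14. The regulators higher at both days included *Six2* (1.81 and 1.93), *Fgf18* (2.07 and 1.72), *Eya2* (1.70 and 1.87), and *Tgfb3* (1.45 and 1.62). *Gdf5*, a growth factor of joints and tendon attachments, was lower, -1.05 and -1.08. In *Acta2*-high cells 2 of the 14 were higher and 3 lower at day 10, and 1 was higher and 2 lower at day 14, with medians of 0.028 and 0.061. Over all genes, 10.3% were higher and 10.6% lower in *Acta2*-high cells at day 10, and 7.5% and 9.31% at day 14. The counts of higher regulators were thus near the share over all genes. *Etv4*, an ETS factor, was 2.48 and 2.22 higher in *Acta2*-high cells.

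Of 21 matrix genes of tendon and ligament, 9 of 20 tested were higher in *Aspn*-high cells at day 10 and 3 lower, and 11 of 21 were higher at day 14 and 3 lower, with medians of 0.89 and 1.02. *Thbs2* (2.65 and 2.97), *Thbs4* (2.32 and 3.27), *Tnc* (2.09 and 1.90), *Col14a1* (1.85 and 2.79), *Col3a1* (1.68 and 2.25), and *Kera* (1.65 and 3.96) led, and *Pcolce2*, *Clec3a*, and *Comp* were the lower ones. Of 10 genes of the tendon sheath and paratenon, 6 of 8 tested were higher at day 10 and 1 lower, and 7 of 9 were higher at day 14. *Ly6a* was 2.32 and 2.29 higher, *Igfbp6* 2.18 and 2.30, and *Tppp3*, a marker of tendon sheath cells, 1.71 and 1.57. Beside both lists, 9.82% of all genes were higher and 6.04% lower in *Aspn*-high cells at day 10, and 10.6% and 7.79% at day 14.

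Markers of cell types that the sort or dissection should have removed were summed in *Aspn*-high cells. The 7 skeletal muscle markers summed to 7.17 CPM at day 10 and 4.73 CPM at day 14, with 3 and 6 of the 7 detected and *Myod1* at 0 at both days. The 5 endothelial markers summed to 2.10 and 4.16 CPM and the 6 macrophage markers to 8.43 and 17.4 CPM, with *Adgre1* at 0. The 6 neutrophil markers summed to 3.42 and 219 CPM. The 5 B cell markers summed to 149 and 174 CPM, of which *Ebf1* alone gave 148 and 173 CPM, and *Ms4a1* was at 0. *Ptprc*-positive cells served as a measure of free RNA at day 7 and day 14. Day 10 had only 6 of them, too few to give a share, so free RNA was not measured in that library. At day 7, none of the 10 genes was found in more than 0.24% of the 3325 thinned *Ptprc*-positive cells, whose median before thinning was 5045 UMIs over all 6570, and *Chodl* and *Ptx4* were found in 0, which allows a share of up to 0.0902% (3 cells of the total). *Scx* was found in 9.52% (3.58 to 19.6) of the *Cnmd*-high cells of day 7 and *Mkx* in the same share, against 0.24% and 0% of the *Ptprc*-positive cells. At day 14 the 138 thinned *Ptprc*-positive cells, with a median of 9210 UMIs over all 173, held *Abi3bp* in 11.6% (6.77 to 18.1), *Scx* in 7.25% (3.53 to 12.9), and *Tnmd* in 5.07% (2.06 to 10.2). The *Scx* share of *Cnmd*-high cells at day 14, 9.77% (8.54 to 11.1), lay within that wide interval, which rests on 10 cells, whereas the 39.1% (37.6 to 40.7) of *Aspn*-high and 49.6% (45.9 to 53.3) of *Acta2*-high cells lay above it. *Mkx* was found in 1.45% (0.18 to 5.14) of the *Ptprc*-positive cells of day 14, and its shares of 3.87% in *Aspn*-high, 3.12% in *Acta2*-high, and 4.37% in *Cnmd*-high cells lay within that interval, which rests on 2 cells. With so few *Ptprc*-positive cells, this comparison could not separate the day 14 shares of *Mkx* in these groups from free RNA. The same held for *Scx* in *Cnmd*-high cells. Among thinned *Rgs5*-high cells of day 14, *Mkx* was found in 1.05% (0.13 to 3.75). The part of free RNA in any of these shares was not tested. The shares of *Chodl*, *Ptx4*, *Angptl7*, and *Egfl6* at day 14, at most 1.45% of *Aspn*-high cells, lay under the 2.17% that 0 of 138 cells allows.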

How the data were processed

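Per the labels, cells of the callus were digested, sorted as CD45-/CD31-/TER119-, and run on the 10x 3' platform, and the authors aligned the reads and collapsed UMIs with Cell Ranger (version 3.0 in the submitters' processing notes, mm10). The deposited values are raw UMI counts per gene for 9103, 8801, and 12984 barcodes at day 7, day 10, and day 14, without the study's limits applied. The limits given above were applied here, and high cells, levels (CPM of summed UMIs), and ratios to the other *Ptprc*-negative cells of the same library were computed from the counts in Python 3.11.15 (numpy 2.4.6, scipy 1.17.1, pandas 2.3.3, matplotlib 3.10.9). Intervals were exact (Poisson for levels, binomial for ratios, Clopper-Pearson for shares). For co-detection each cell was thinned once, with seed 1, to 5000 UMIs. A gene was called at 2-fold with 50 UMIs. No doublet caller was run, and the limit of 5000 genes was the only measure against doublets. In counts simulated from the pooled sums of day 10, the ratio and the 2-fold call recovered known changes. That simulation held no differences between cells and did not cover the calling of high cells or the co-detection. The 10 genes, the marker lists, and the rules were chosen with earlier results of these data known. Besides the 10 genes and the 5 used to sort cells, genes were named by rank in positive cells, and at most 6 of each list by rank in *Aspn*-high or *Acta2*-high cells. The further genes in *Chodl*- and *Egfl6*-positive cells and the lowest genes of the lists were chosen after their values were seen. Alternatives covered the limits on cells, the level called high, the aggregation, the thinning, and the expectation for pairs. Some genes that met the naming rules are not reported here.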

Additional observations from a re-analysis of the deposited data

Results flagged for a closer look

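The ratio of *Chodl* in *Acta2*-high over other cells had opposite signs on the 2 days, -2.47 on the log2 scale at day 10 and 1.39 at day 14, with counting intervals clear of 0 at both. It rested on 8 UMIs in 6 *Acta2*-high cells and 15 UMIs in 4. The ratio of *Abi3bp* in the same cells was -0.34 at day 10 and 0.14 at day 14, both far under 2-fold. Neither difference between the days was tested, since each day is 1 library. Outlying samples could not be sought with 1 library per day.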

How the results depend on the processing

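Of 117 counts and shares recomputed under other settings, 100 stayed within 1.5 times the value given (counts) or within its interval (shares). The number of members 2-fold higher in *Acta2*-high cells at day 14, 4, was 2 with no upper limit on genes, without the 10% of cells with the most UMIs, at 2000 CPM, in cells high for exactly 1 gene, and as a mean over cells, and 1 at a fold of 3, while at day 10 it was 0 in cells high for exactly 1 gene. Cells with at least 3 members were 3.39% and 4.01% at day 10 and day 14 when thinned to 2000 UMIs, 17.2% and 21.8% without thinning, 8.80% and 11.7% without the deepest 10% of cells, and 11.7% at day 14 with cells holding *S100a8* or *S100a9* left out, a setting that left no day 7 cell deep enough to thin. Pairs past 2-fold were 20 and 12 with the expectation within *Aspn*-high cells. Members higher in *Aspn*-high cells at day 7 were 1 without the 10 richest cells for each gene, which left 2 of the members with 50 UMIs in place of 6, an alternative added after seeing the data, as were all those on the day difference.

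Among 445 log2 ratios of single members, 265 stayed within the interval of the value given, 163 left it, and 17 others changed a sign whose interval was clear of 0. In cells high for exactly 1 gene, *Acta2*-high ratios were -2.85 (day 10) and -2.48 (day 14) for *Tnmd*, -3.54 and -0.43 for *Cilp*, and -2.38 (day 14) for *Abi3bp*, and the *Aspn*-high ratio of *Mkx* at day 10 was 0.13. *Abi3bp* in *Acta2*-high cells was -0.080 without the deepest cells, -0.33 at 2000 CPM, and -0.19 as a mean over cells at day 14, and 0.053 at 500 CPM at day 10, and *Cilp* at day 10 was -0.28 as a mean over cells. The day 14 over day 10 ratio in *Aspn*-high cells was -0.011 for *Scx* with no limits, -0.017 with no upper limit on genes, and -0.0085 in cells high for exactly 1 gene, where *Cilp* was -0.12 and *Abi3bp* -4.9e-05, and *Cilp* was -0.018 as a mean over cells. The cause of these shifts was not tested. No paired analysis was possible because each day is 1 library. Values from few UMIs, such as those of *Chodl* and *Ptx4* in *Cnmd*-high, *Ifitm5*-high, and *Rgs5*-high cells, carry wide counting intervals.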
